A study of Mus musculus with 2 samples.

Results

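The acid-base transport genes examined here comprised the subunits of the vacuolar proton pump with its accessory proteins, the carbonic anhydrases, the bicarbonate transporters of the Slc4 family and the sodium-proton exchangers of the Slc9 family. They were taken by a pattern of gene symbols, chosen with earlier results of these arrays known. Of the 19505 genes read by the arrays, 57 were members: 24 of the proton pump, 16 carbonic anhydrases, 10 of the Slc4 family and 7 of the Slc9 family. The symbol pattern also took in Slc4a1ap (kanadaptin, not a transporter) and Atp6v1fnb (a gene beside Atp6v1f, not a pump subunit). Atp6v0c and Slc4a7 were not analysed here.

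Proximal tubular (PT) cells of wild-type mice and of PT cell-specific KAT5 knockout (KO) mice were compared, each genotype on a single Clariom S array. In KAT5 KO mice, floxed KAT5 alleles were deleted by a Cre recombinase under the γGT promoter, which is active along the PT and most strongly in its last segment. Both parental lines of the KO were on a C57BL/6J background, and the control is labelled only as wild type. Both samples are labelled as male and 8 weeks old. Whether mice were pooled is not given in the sources used here, and the sample descriptions also speak of embryos. Minced kidneys were depleted of CD31-positive endothelial cells, after which PT cells were taken by magnetic sorting for Prominin1.

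Several features of the whole arrays bear on every result below. The log2 level of Kat5 was 10.20 in the wild-type and 8.67 in the KAT5 KO preparation, or 34.8% of the wild-type level. Where its probe set lies relative to the deleted part of the gene is not given in the sources used here. Y-linked genes went against the male label of the KAT5 KO sample, where Eif2s3y, Uty and Kdm5d were at 2.29, 3.42 and 3.76, against 10.11, 9.84 and 7.69 on the wild-type array. The arrays also differed in markers of cell types. All 12 PT markers were more than 2-fold higher on the KAT5 KO array, by 4.29 to 9.57 on the log2 scale (median 6.87), and their levels ran from 5.21 to 13.77 in the wild-type and from 12.45 to 19.93 in the KAT5 KO preparation. With 1 array per genotype, there was no spread between replicates and no test, so the differences below are differences between these arrays. The low PT markers of the wild-type preparation went against its label, and whether it was the sorted PT fraction cannot be told from these data, so it is called the wild-type preparation here. Levels of cell type markers and of Y-linked genes moved with genotype on the same arrays, and their sources cannot be told apart, nor can fewer cells of a type be told apart from less RNA per cell.

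The PT reclaims most of the bicarbonate that is filtered at the glomerulus. Protons enter the lumen through the sodium-proton exchanger NHE3 (Slc9a3) and the proton pump, carbonic anhydrases in the membrane and the cytosol interconvert bicarbonate and CO2, and bicarbonate leaves on the blood side through NBCe1 (Slc4a4). The intercalated cells of the collecting duct fine-tune acid excretion with a proton pump that uses partly different isoforms, together with the anion exchangers AE1 (Slc4a1), AE4 (Slc4a9) and pendrin. The pump itself has a cytosolic V1 part, which splits ATP, and a V0 part in the membrane, through which protons pass.

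Promoters of 4 members are shown because these genes stand for the main patterns below. Atp6v1b1 was lower on the KAT5 KO array, whereas Atp6v0d1, Slc9a3 and Slc4a4 were higher, and Slc4a4 has separate starts of transcription in RefSeq, both of which are given. Sequences are from RefSeq (GRCm38.p6), from 250 bases before to 50 bases after the start, written 5′ to 3′ on the strand of the gene. Capitals mark a match on either strand to the forkhead motif TGTTTAC in Atp6v1b1, to the E-box CACGTG in Atp6v0d1 and Slc9a3, and to the nuclear receptor half-site AGGTCA in the downstream start of Slc4a4. The upstream start of Slc4a4 held no AGGTCA and is printed without capitals.
Atp6v1b1, chr6:83742767-83743066, plus strand: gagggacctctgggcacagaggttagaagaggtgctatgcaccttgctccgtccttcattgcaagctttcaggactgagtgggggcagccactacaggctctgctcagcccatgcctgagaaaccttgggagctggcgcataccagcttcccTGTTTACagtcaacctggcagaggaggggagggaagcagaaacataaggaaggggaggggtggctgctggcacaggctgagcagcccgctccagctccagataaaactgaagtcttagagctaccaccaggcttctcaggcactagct
Atp6v0d1, chr8:105566015-105566314, minus strand: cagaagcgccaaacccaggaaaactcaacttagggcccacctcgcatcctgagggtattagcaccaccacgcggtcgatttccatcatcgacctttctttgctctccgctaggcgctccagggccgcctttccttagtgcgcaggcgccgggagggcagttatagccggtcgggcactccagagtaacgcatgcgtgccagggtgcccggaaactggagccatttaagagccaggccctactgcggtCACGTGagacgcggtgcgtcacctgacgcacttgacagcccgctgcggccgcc
Slc9a3, chr13:74121163-74121462, plus strand: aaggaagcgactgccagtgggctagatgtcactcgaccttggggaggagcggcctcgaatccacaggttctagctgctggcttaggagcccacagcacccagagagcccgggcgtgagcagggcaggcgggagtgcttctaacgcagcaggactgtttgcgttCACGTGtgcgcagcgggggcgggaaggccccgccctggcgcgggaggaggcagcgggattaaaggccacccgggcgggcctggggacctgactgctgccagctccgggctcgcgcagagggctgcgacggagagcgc
Slc4a4, chr5:88887010-88887309, plus strand: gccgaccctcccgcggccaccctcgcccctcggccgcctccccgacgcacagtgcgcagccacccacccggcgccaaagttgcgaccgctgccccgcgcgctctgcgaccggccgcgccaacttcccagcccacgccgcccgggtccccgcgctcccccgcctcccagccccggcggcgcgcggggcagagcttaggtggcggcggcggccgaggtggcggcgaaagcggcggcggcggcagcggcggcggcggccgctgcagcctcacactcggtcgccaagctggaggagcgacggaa
Slc4a4, chr5:89027716-89028015, plus strand: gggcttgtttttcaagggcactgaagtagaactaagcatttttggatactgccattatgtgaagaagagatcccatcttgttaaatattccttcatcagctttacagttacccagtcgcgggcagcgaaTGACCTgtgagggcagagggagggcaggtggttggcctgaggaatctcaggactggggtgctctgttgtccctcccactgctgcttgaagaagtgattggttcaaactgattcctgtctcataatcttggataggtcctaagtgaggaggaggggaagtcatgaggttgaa

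The RefSeq table held 49 promoters for 41 of the members, and matches on either strand are descriptions of letters in these windows. CACGTG, the core of the E-box read by the lysosomal regulator TFEB and its relatives, was found in 6 of 49 member promoters and in 7.15% of all 32851 promoters. Counted by gene, with any promoter of a gene sufficing, it was found in 4 of 17 pump genes with a promoter in the table (Atp6v0b, Atp6v0d1, Atp6v0e and Atp6v1a). The longer TCACGTGA was found in 3 of 49 member promoters and in 0.974% of all promoters. By gene it was found in 3 of these 17 pump genes (Atp6v0d1, Atp6v0e and Atp6v1a). The 4 pump genes with CACGTG did not share a direction, since Atp6v0d1 was higher on the KAT5 KO array and Atp6v0b, Atp6v0e and Atp6v1a lay within 2-fold. TGTTTAC was found in 2 of 49 member promoters, those of Atp6v1b1 and Car5a, and in 3.65% of all promoters. AGGTCA was found in 4 of 49 member promoters (Atp6v0e2, Car7, Slc4a2 and Slc4a4) and in 16.3% of all promoters. TGTTTA, which is contained in TGTTTAC, was found in 4 member promoters (13.4% of all promoters). The left part of the HNF1 site was found in 1, that of Atp6v0a4 (0.399%). The full HNF1 palindrome (0.00913%), the palindromic CLEAR element that extends TCACGTGA (0.326%), the HNF4 motif CAAAGTCCA (0.475%) and the extended AGGTCA half-sites CAAGGTCA (1.56%) and TCAAGGTCA (0.423%) were found in 0 of 49.

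On the KAT5 KO array, acid-base genes were more often higher than lower, with large differences on both sides. A background level of 5.13 was taken from odorant, vomeronasal and taste receptor genes, and whether the kidney expresses any of these was not examined. Levels under this background level were raised to it, and genes above it on either array were taken as measured. Of the 57 members, 47 were measured, 42 of them on both arrays, and 10 lay under the background level on both. At 2-fold or more, 18 of 47 were higher on the KAT5 KO array (38.3%, against 17.7% of the 11654 measured genes) and 9 were lower (19.1%, against 15.9%). The remaining 20 lay within 2-fold. The median difference, KAT5 KO minus wild-type, was 0.37 for the members and -0.05 for all measured genes. The share of lower members was thus near that of all genes, and the share of higher members was above it.

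**Figure D1:**
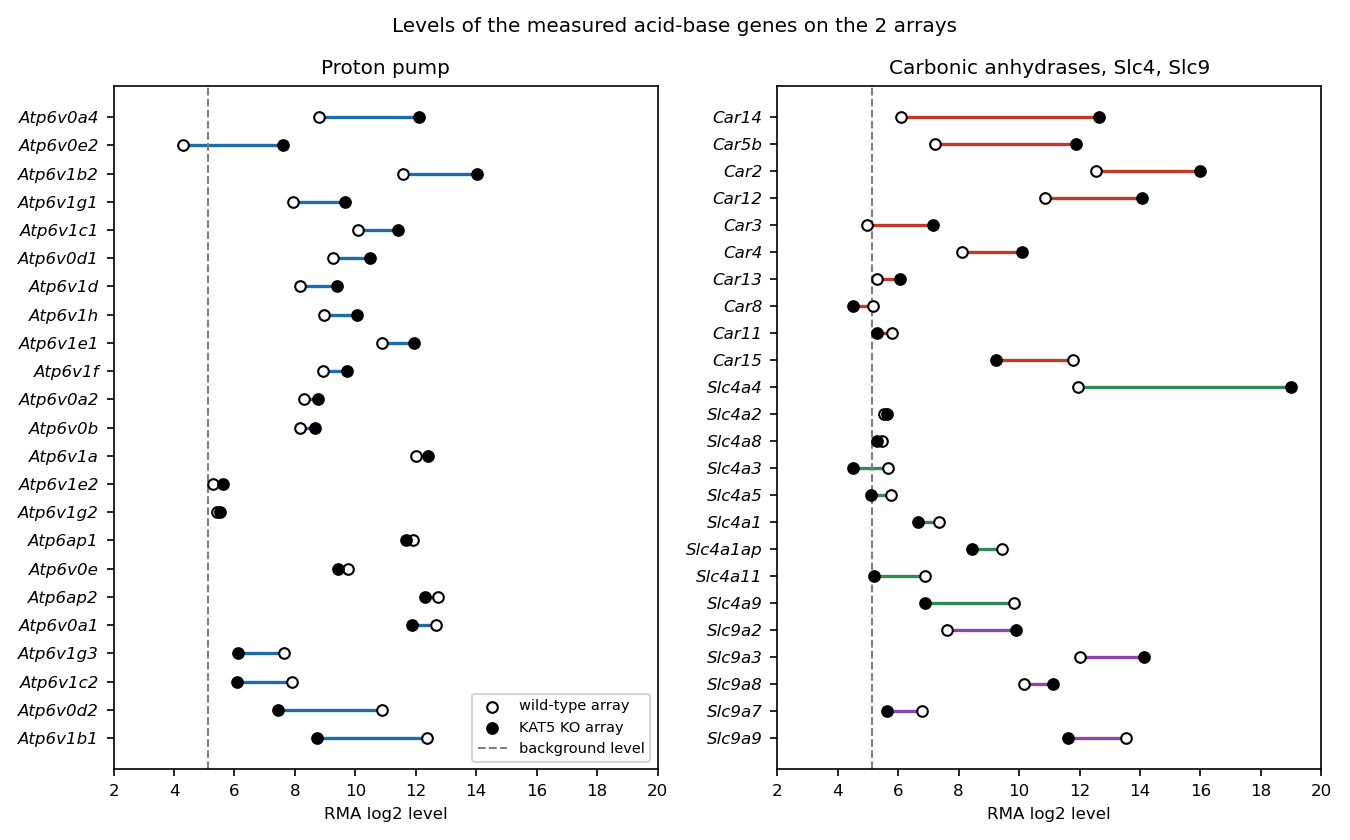
RMA log2 level (x axis) of each of the 47 measured acid-base genes on the wild-type array (open circles) and the KAT5 KO array (filled circles), 1 array each, joined by a line coloured by family, with the background level of 5.13 dashed. Slc4a4, Car14 and Car5b show the longest lines to the right, and Atp6v1b1, Atp6v0d2 and Slc4a9 the longest to the left.

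**Figure D2:**
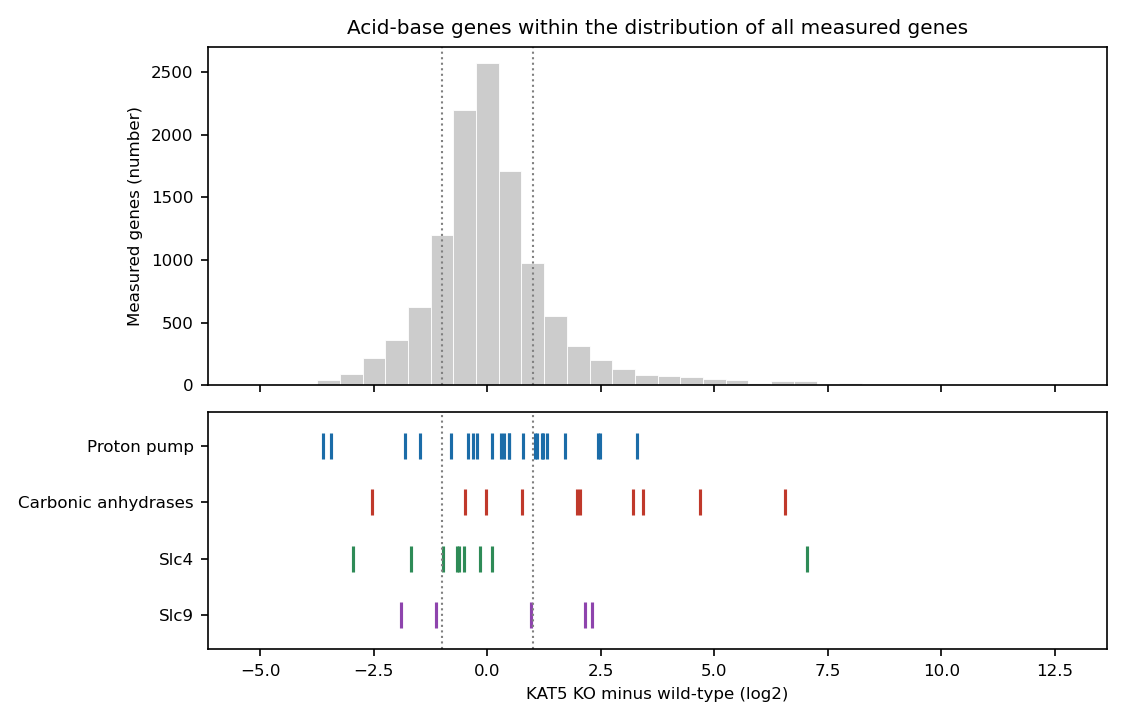
Number of measured genes (upper panel, y axis, 11654 in all) by the log2 difference KAT5 KO minus wild-type (x axis), and below it 1 tick for each measured acid-base gene by family, with 2-fold marked by dotted lines. Slc4a4 at 7.05 and Car14 at 6.56 lie far out in the upper tail, and Atp6v1b1 at -3.62 and Atp6v0d2 at -3.45 in the lower.

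The cotransporter Slc4a4, the exchanger Slc9a3 and the carbonic anhydrases Car2, Car4 and Car14, picked from textbook roles in PT bicarbonate reclamation with their values known, were higher on the KAT5 KO array. Other genes of this process, described further on, were not, such as the catalytic pump subunit Atp6v1a (0.37) and the exchanger Slc9a8 (0.96), both within 2-fold, and the membrane enzyme Car15 (-2.54). Slc4a4, which encodes the sodium-bicarbonate cotransporter NBCe1 of the basolateral membrane, was at 11.93 in the wild-type and 18.98 in the KAT5 KO preparation. This was the largest difference of any member (7.05, 132-fold), and 63 of 11654 measured genes were higher by more. Slc9a3, which encodes the apical exchanger NHE3, was at 11.9996 and 14.1397 (2.14, 4.41-fold). Car2, the main cytosolic carbonic anhydrase, was at 12.55 and 15.98 (3.43, 10.8-fold). Among the enzymes on the cell surface, Car14 was at 6.08 and 12.63 (6.56, 94.0-fold) and Car4 at 8.10 and 10.09 (1.98, 3.95-fold). Only Slc4a4 and Car14 of these 5 reached differences within the range of the PT markers (4.29 to 9.57). Those of Slc9a3, Car2 and Car4 lay under the lowest PT marker, the water channel Aqp1 (4.29). The part of the PT markers in these differences was not tested.

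Of the 10 measured carbonic anhydrases, 6 lay at least 2-fold above the wild-type level (60%, against 17.7% of all measured genes). At least 2-fold below it lay 1 (10%, against 15.9%). The median difference was 2.01, or 0.40 with no background level. Mitochondrial Car5b, which supplies bicarbonate to carboxylation and ureagenesis, was at 7.21 in the wild-type and 11.90 in the KAT5 KO preparation (4.69, 25.8-fold). Its sister Car5a, the mitochondrial form of liver, was under the background level on both arrays, at 3.44 and 3.04. Car12, a transmembrane enzyme with its catalytic part outside the cell, was at 10.85 and 14.07 (3.22, 9.29-fold). Car3, a cytosolic enzyme of low activity that is abundant in muscle and fat, was under the background level in the wild-type preparation (4.97) and at 7.17 in the KAT5 KO preparation, at least 4.10-fold higher (2.03 on the log2 scale, or 1.27 with the background level at the 99th percentile of receptor genes). The exception was Car15, which is anchored to the outer membrane by a lipid as Car4 is. Car15 was at 11.79 in the wild-type and 9.24 in the KAT5 KO preparation, a difference of -2.54 that left 17.2% of the wild-type level. The membrane-bound enzymes were therefore divided, with 3 higher (Car4, Car12 and Car14), 1 lower (Car15) and Car9, an enzyme induced by low oxygen, under the background level at 4.62 and 3.68. Car13 (0.77), Car11 (-0.49) and Car8 (-0.04) lay within 2-fold, of which Car11 and Car8 are related proteins without enzyme activity. Car1, Car6, Car7 and Car10 were not measured. Car13, Car1, Car3 and Car2 lie next to each other on chromosome 3. Car2 and Car3 were higher, Car13 within 2-fold and Car1, at 4.83 and 4.12, under the background level, so the neighbours did not differ alike.

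Apart from Slc4a4, no Slc4 family gene was 2-fold or more higher. Of 9 measured members, 1 was higher (11.1%, against 17.7% of all measured genes), 2 were lower (22.2%, against 15.9%) and 6 were within 2-fold. The median was -0.62 and the mean -0.05. With so few genes, these shares were not far from those of all genes. Slc4a9, which encodes AE4 of intercalated cells of type B, was at 9.84 in the wild-type and 6.87 in the KAT5 KO preparation (-2.96), or 12.8% of the wild-type level, with 102 of 11654 measured genes further down. Intercalated cell markers were lower too (median -2.75). Slc4a11, a membrane protein whose human gene is mutated in corneal dystrophy, was at 6.88 and 5.21 (-1.67, or -0.99 with the background level at the 99th percentile of receptor genes). Slc4a1 encodes AE1 of red blood cells and of intercalated cells of type A, and its levels of 7.33 and 6.67 lay within 2-fold (-0.67). Slc4a2, the widely expressed AE2, differed by 0.10 and Slc4a8, a sodium-driven chloride-bicarbonate exchanger, by -0.16. Slc4a3 and Slc4a5 were above background in the wild-type preparation only, at 5.66 and 5.75, and Slc4a10 in neither preparation. Slc4a1ap was at 9.43 and 8.45, a difference of -0.99, just inside 2-fold.

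Of 23 measured proton pump genes, 9 were 2-fold or more higher on the KAT5 KO array (39.1%, against 17.7% of all measured genes), 4 were lower (17.4%, against 15.9%) and 10 were within 2-fold, with a median of 0.48. The share of lower pump genes was thus near that of all genes. Isoforms that are known for restricted tissues such as kidney, bone and lung (Atp6v0a4, Atp6v0d2, Atp6v1b1, Atp6v1c2 and Atp6v1g3) were set apart from the other subunits by textbook knowledge, with their values already known. Of these 5, 4 were lower and 1 was higher, whereas of the 18 other subunits and accessory genes 8 were higher and 0 were lower, from -0.80 to 2.48. This division is a description of values already seen. Intercalated cell markers, described further on, had a median of -2.75.

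The B subunit, part of the ring that splits ATP, was the most divided. Atp6v1b1, the form of intercalated cells that is mutated in human distal renal tubular acidosis, was at 12.36 in the wild-type and 8.75 in the KAT5 KO preparation (-3.62), or 8.14% of the wild-type level, with 26 of 11654 measured genes further down. Atp6v1b2, the widely expressed form, was at 11.58 and 14.01 (2.43, 5.38-fold higher). The differences of these isoforms thus lay 6.05 apart on the log2 scale, more than for any other subunit with several isoforms. The d subunit joins the stalk of the pump to its membrane ring. Its form Atp6v0d2, known from osteoclasts, macrophages and kidney, was at 10.87 and 7.43 (-3.45), and the common form Atp6v0d1 at 9.25 and 10.47 (1.22), a gap of 4.66. The C subunit holds V1 and V0 together, and of its forms Atp6v1c2 was at 7.90 and 6.09 (-1.81) and Atp6v1c1 at 10.08 and 11.40 (1.32). For the G subunit of the peripheral stalks, Atp6v1g3 was at 7.63 and 6.13 (-1.50) and Atp6v1g1 at 7.93 and 9.64 (1.71), while Atp6v1g2, known from neurons, differed by 0.11.

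The a subunit of the membrane part ran the other way. Atp6v0a4, also mutated in human distal renal tubular acidosis and expressed in the PT as well as in intercalated cells, was at 8.80 in the wild-type and 12.10 in the KAT5 KO preparation (3.30, 9.87-fold higher). The a isoforms Atp6v0a1, at 12.66 and 11.86 (-0.80), and Atp6v0a2, at 8.29 and 8.77 (0.48), lay within 2-fold. Atp6v1b1 and Atp6v0a4, which work together in the intercalated cell pump, therefore lay on opposite sides. For the small e subunit, Atp6v0e2 was under the background level in the wild-type preparation (4.31) and at 7.61 in the KAT5 KO preparation, at least 5.57-fold higher (2.48 on the log2 scale, or 1.72 with the 99th percentile as background), while Atp6v0e differed by -0.31.

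The remaining V1 subunits had small positive differences. Atp6v1d of the central stalk was at 8.17 and 9.38 (1.21), Atp6v1h, which regulates the motor, at 8.95 and 10.04 (1.10), and Atp6v1e1 of the peripheral stalk at 10.88 and 11.93 (1.06). With quantile normalization, Atp6v1h (0.95) and Atp6v1e1 (0.90) lay within 2-fold. The catalytic subunit Atp6v1a was at 12.02 and 12.39 (0.37) and Atp6v1f at 8.92 and 9.71 (0.78), both within 2-fold, as was Atp6v1e2, the form of testis (0.31). The accessory proteins Atp6ap1 and Atp6ap2, the second of which is the prorenin receptor, differed by -0.24 and -0.43. The highest gene of each V1 subunit lay between 0.37 (Atp6v1a) and 2.43 (Atp6v1b2), a choice that favours positive values. The lowest genes of B, C and G were at -3.62 (Atp6v1b1), -1.81 (Atp6v1c2) and -1.50 (Atp6v1g3).

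**Figure D3:**
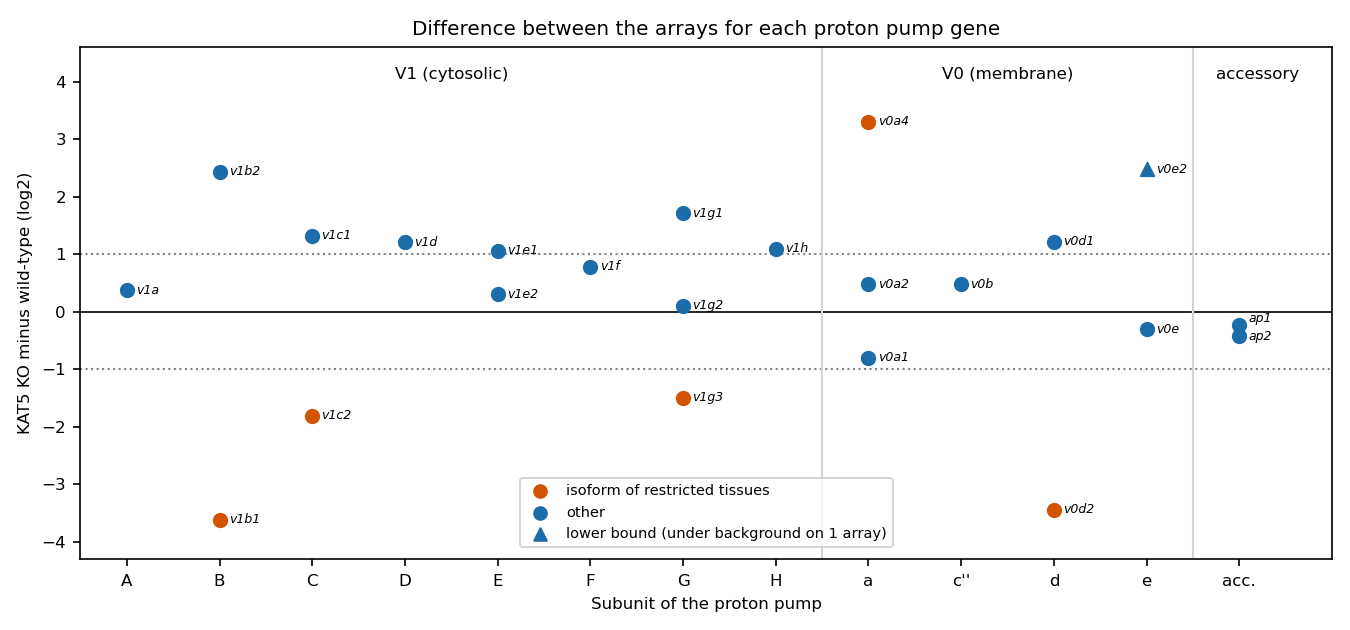
Log2 difference KAT5 KO minus wild-type (y axis) of each measured proton pump gene, placed by the subunit it encodes (x axis, V1 on the left, V0 in the middle, accessory proteins on the right), with 2-fold dotted and isoforms of restricted tissues in orange. For B, C, d and G the orange isoform lies below -1 and another isoform above 1, while for the a subunit the orange isoform Atp6v0a4 is the highest, at 3.30. The triangle for Atp6v0e2 is a lower bound.

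Of the 5 measured sodium-proton exchangers, 2 were 2-fold or more higher on the KAT5 KO array (40%, against 17.7% of all measured genes). Another 2 were lower (40%, against 15.9%). The median was 0.96, or -0.030 with no background level. The exchangers of the plasma membrane were on the higher side. Besides Slc9a3, Slc9a2 (NHE2), an apical exchanger of more distal tubule segments, was at 7.60 and 9.90 (2.30, 4.93-fold). Slc9a8 (NHE8), which is found in the PT brush border and in the Golgi, was at 10.17 and 11.13 (0.96), just inside 2-fold. The exchangers of internal compartments were on the lower side. Slc9a9 (NHE9) of late endosomes was at 13.53 in the wild-type and 11.62 in the KAT5 KO preparation (-1.91), or 26.6% of the wild-type level, and Slc9a7 (NHE7) of the trans-Golgi network was at 6.77 and 5.64 (-1.14, or -0.88 with the 99th percentile as background). Slc9a4, the neighbour of Slc9a2 on chromosome 1, and Slc9a5 were under the background level in both preparations.

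Genes that work with these transporters were read from lists written with earlier results of these arrays known. Of 6 measured partners of sodium-proton exchange, 3 were higher (50%, against 17.7% of all measured genes) and 0 were lower (against 15.9%), with a median of 0.67. The other 3, Slc9a3r2 (-0.62), Sgk1 (-0.56) and Chp1 (-0.09), were within 2-fold with negative differences. The higher genes were the scaffold Pdzk1 of the brush border, at 7.61 and 14.51 (6.91), the related scaffold Pdzd3, at 4.76 under the background level and then 9.80 (at least 25.4-fold higher), and ezrin, Ezr, which ties NHE3 to the cytoskeleton, at 13.18 and 14.60 (1.43). Of 7 genes listed for ammonia production and bicarbonate supply only 3 were joined to a probe set, and these 3 were higher (100%, against 17.7% of all measured genes, median 1.72). Pck1, which makes glucose from the carbon left by glutamine, was at 9.42 and 19.37 (9.95), Ogdh of the citrate cycle at 13.55 and 15.27 (1.72), and the glutamine transporter Slc38a3 at 4.70 and 6.28 (at least 2.21-fold). Of 14 measured genes of pump assembly and regulation, 2 were higher, 3 were lower and 9 were within 2-fold (median 0.24), and the shares of 14.3% higher and 21.4% lower were near those of all measured genes (17.7% and 15.9%). Ncoa7, which binds the pump, was at 8.15 and 10.73 (2.58) and Dmxl2, of the complex that assembles V1 with V0, at 7.88 and 9.58 (1.70). Lower were Mitf (-1.55) and Tfe3 (-1.47), transcription factors of lysosomal genes, and Tldc2, at 6.50 and then under the background level at 3.73 (at least 2.58-fold lower). Tfeb, their relative, differed by -0.02.

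Of 7 measured further acid-base transporters, 3 were lower (42.9%, against 15.9% of all measured genes) and 0 were higher (against 17.7%), with a median of -0.68. The lower genes were Slc26a4 (pendrin), at 10.01 and 6.42 (-3.58), the proton-potassium pump Atp4a, at 10.90 and 8.13 (-2.77), and the ammonia channel Rhcg, at 9.70 and 6.95 (-2.75), all known from the collecting duct. Of 5 measured genes of acid sensing, 1 was higher (20%, against 17.7% of all measured genes) and 2 were lower (40%, against 15.9%), with a median of -0.54. The potassium channel Kcnk5 was higher, at 6.48 and 10.61 (4.13). The proton-sensing receptor Gpr65 of leukocytes, at 14.38 and 12.16 (-2.22), and the alkali-sensing receptor Insrr of intercalated cells, at 7.85 and 5.68 (-2.17), were lower.

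Markers of cells known to express several of the lower members were lower on the KAT5 KO array as well. Of 10 intercalated cell markers joined to a probe set, none of them members, 9 were measured and 7 of these lay at least 2-fold lower and 0 higher (median -2.75, from -4.87 to -0.08). The log2 of their summed level was 14.70 in the wild-type and 10.44 in the KAT5 KO preparation. Foxi1, the forkhead factor that defines these cells, was at 9.20 and 7.35 (-1.85), above the background level on both arrays. Dmrt2, a marker of type A cells, was under it on both. The differences of all 9 lower members lay within the range of these markers, among them Atp6v1b1 (-3.62), Slc4a9 (-2.96), Atp6v1c2 (-1.81) and Atp6v1g3 (-1.50). The range is wide and ends near the median of all measured genes (-0.05), so lying within it does not set a lower member apart. The difference of Atp6v0a4 (3.30) lay outside this range. Of 9 macrophage markers, 8 were lower and 0 were higher (median -1.82, from -2.84 to -0.18), with a summed log2 level of 19.88 in the wild-type and 18.37 in the KAT5 KO preparation. Atp6v0d2 (-3.45), which macrophages also express, lay below this range, and Slc9a9 (-1.91) lay within it. The macrophage range also ends near the median of all measured genes, and other lower members such as Car15 (-2.54) lay within it too. The part of these cells in the members' differences was not tested.

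Markers of other kidney cell types were mostly lower as well. Loop of Henle markers had a median of -4.19 (6 of 7 lower, with Cldn10 higher), principal cells -2.19 (5 of 8 lower), the distal convoluted tubule -1.46 (3 of 5 lower), endothelium -1.11 (5 of 7 lower) and podocytes -0.92 (1 of 3 lower). Summed log2 levels on the wild-type and KAT5 KO arrays were 20.42 and 16.18 for the loop of Henle, 13.85 and 10.67 for principal cells, 18.17 and 16.30 for the distal convoluted tubule, 10.69 and 8.77 for endothelium, and 8.93 and 7.87 for podocytes. Of 5 erythroid markers, 4 were under the background level on both arrays, and only Alas2, at 8.56 and 5.79, was measured (-2.77). For PT markers the log2 of the summed level was 14.86 in the wild-type and 21.64 in the KAT5 KO preparation. Umod of the loop of Henle on the wild-type array and Slc34a1 of the PT on the KAT5 KO array were at the highest value of the arrays (19.93), so the sums of these lists are lower bounds there, and sums over different probe sets are not set against each other. Defining markers of other segments were thus above the background level in both preparations, although both are labelled as PT cells.

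**Figure D4:**
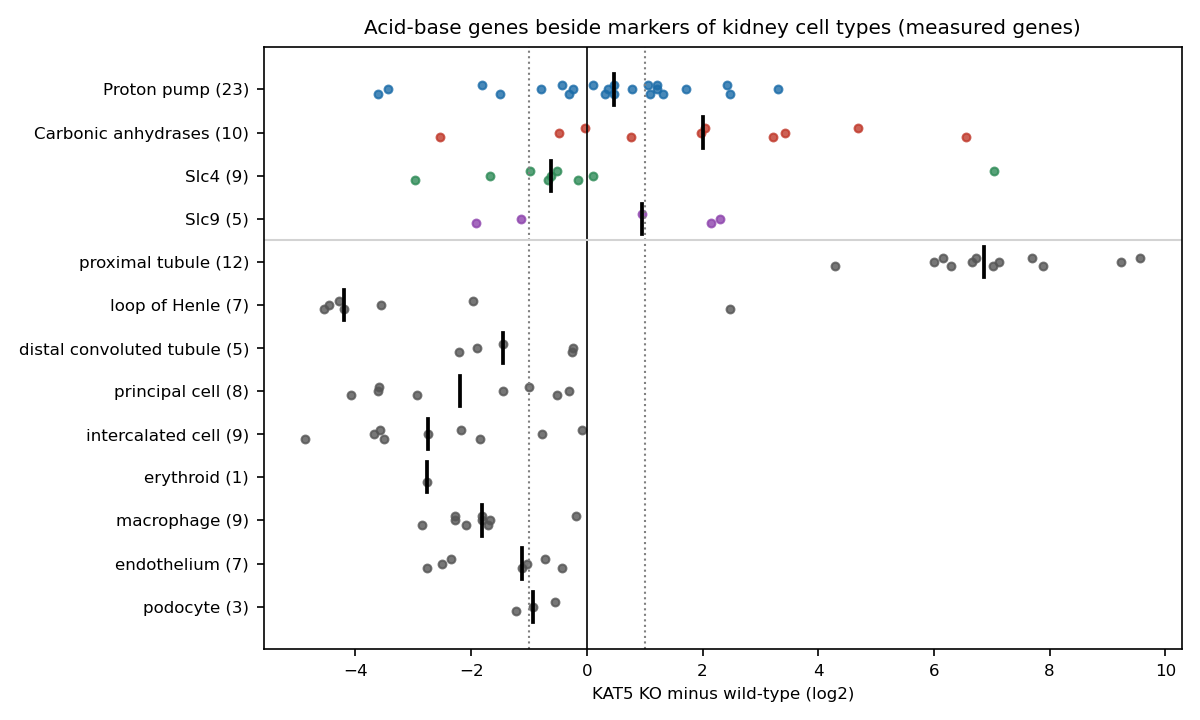
Log2 difference KAT5 KO minus wild-type (x axis) of the measured genes of the 4 acid-base families (coloured) and of 9 lists of cell type markers (grey), 1 point for each gene, with the number of genes in parentheses, the median as a black bar and 2-fold dotted. Each family spans both sides of 0, while the 12 PT markers lie between 4.29 and 9.57 and all but 1 measured marker of the other cell types lie below 0.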

How the data were processed

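Gene expression was measured in isolated PT cells with 1 Clariom S array for each genotype. With the Transcriptome Analysis Console the authors computed RMA values, deposited as log2 levels for 28846 probe sets. The versions and the genome build of the array are not given in the sources used here. RMA corrects for background and normalizes arrays to each other, which can hide a change shared by all genes. The deposited arrays were not on identical distributions, with medians of 5.59 for wild-type and 5.50 for KAT5 KO. Of the probe sets, 19572 carried 1 gene symbol in the platform annotation, 0 carried several and 9274 carried none and were left out. Levels were averaged for the 55 genes with more than 1 probe set, none of them a member. All 57 members were found in RefSeq by gene number, with 0 changed symbols. Groups were taken from the genotype labels.

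For the background level, the 95th percentile of 1450 odorant, vomeronasal and taste receptor genes was taken on each array and the higher value used, and lower levels were raised to it. Of these dim genes, 7.72% differed 2-fold or more as deposited, which is not an error rate for other genes. Differences are KAT5 KO minus wild-type, and for a gene above background on 1 array only the fold is a lower bound. With 1 array per genotype there were no p-values, and precision is limited by this number. Members, gene lists and the division of pump isoforms were chosen with earlier results of these data known. All members could be named, with both levels for those 2-fold or more apart and for isoforms of 1 pump subunit, and from each list up to 4 genes in each direction. Rhcg, Slc26a4, Slc26a7 and Insrr stand on 2 lists. Foxi1, Dmrt2, Aqp1, Slc34a1 and Tfeb were named after their values were seen. Promoters and neighbouring genes were taken from RefSeq (GRCm38.p6). Alternatives concerned the scaling of the arrays, the background level, the probe set, the threshold and the summary. The steps were tested on simulated data, with changes planted only in bright genes and well past 2-fold, and with little added noise. This did not test changes in genes near the background level or calls near the threshold. Python 3.11.15 was used, with the packages pandas 2.3.3, numpy 2.4.6, statsmodels 0.14.6 and matplotlib 3.10.9.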

Additional observations from a re-analysis of the deposited data

How the results depend on the processing

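The counts of 18 higher and 9 lower members stayed within 1.5 times of these values under each scaling, background level, probe set and threshold, from 13 to 21 higher and from 7 to 13 lower, with the extremes on the higher side at thresholds of 3-fold and 1.5-fold. Of the 27 members 2-fold or more apart, 27 kept their direction and 23 stayed past 2-fold in all 7 settings of scaling, background and probe set. The exceptions were Atp6v1e1 (0.90 to 1.26), Atp6v1h (0.95 to 1.18), Slc4a11 (-1.67 to -0.99) and Slc9a7 (-1.14 to -0.88). Slc9a8 (0.80 to 1.12), Slc4a1ap (-1.10 to -0.90) and Slc4a3 (-1.14 to 0.00) passed 2-fold in some settings. The median of the Slc9 family was 1.05 with the arrays centred, 1.12 with the loess trend removed and -0.030 with no background level, which adds the exchangers under the background level. That of the carbonic anhydrases was 2.60 with the background level at the 99th percentile of receptor genes and 0.40 with none, again by the number of dim genes included. Removing the loess trend moved the median of all measured genes from -0.05 to 0.05. Kat5 ranged from -1.68 to -1.44. No paired analysis was possible because each genotype has 1 array, and no array could be left out.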
